A study of Rattus norvegicus with 9 samples.

Results

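S100 proteins are small calcium-binding proteins of the EF-hand type, and 10 of their genes are described here in the rat hippocampus after stroke: S100a1, S100a3, S100a4, S100a6, S100a8, S100a9, S100a10, S100a11, S100a13 and S100b. The genes were chosen by symbol from the gene tables, with earlier results of these data known, so the same differences between groups that led to their choice are given below as values, with counts of calls set beside those of all genes, no p-value of a member's own, and as support for nothing. Where a single member is said to pass or not, that shows how its call varies between fits and supports nothing. The choice used no stated threshold, so there are no members just inside or just outside one. The 10 genes stand among 18733 in the tables, and 8 of them passed the filter on low counts that kept 14840 genes for testing. S100a8 and S100a9 did not pass it and are described by their counts.

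Bulk RNA-seq was made from the hippocampus of 9 male rats, 3 per group. Control rats were fed routinely, and the labels name neither a sham operation nor a sham stimulation. PSCI rats had post-stroke cognitive impairment after middle cerebral artery occlusion (MCAO), which interrupts blood flow in a large artery of the brain, and were fed routinely for 2 weeks. taVNS rats had the same impairment after MCAO and received transcutaneous auricular vagus nerve stimulation, an electrical stimulation through the skin of the ear, for 14 days. The operated rats were admitted by behaviour, with spontaneous alternation rate and cognitive index both under a limit that the labels give as 20% of the control mean, and were then randomised between PSCI and taVNS. The labels give neither age, strain, hemisphere nor whether the control rats differed from the operated rats in anything besides MCAO. Tissue pieces came from single animals, so the spread within a group is between rats, although the extraction text speaks of mice where the organism is rat.

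On binding calcium, an S100 protein, usually a dimer, exposes a surface that grips its targets. Inside cells, S100a10 is known as the partner of annexin A2, S100a11 of annexin A1, and S100a4 of non-muscle myosin, and the family is linked to membrane traffic and cell movement. Outside cells, S100b and the S100a8 and S100a9 proteins are known as damage signals read by receptors such as RAGE (Ager) and Tlr4. In the brain S100b is the classical astrocyte member, and S100a10 is often used as a marker of reactive astrocytes.

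Apart from S100b on chromosome 20, the members lie on chromosome 2 in the RefSeq annotation of assembly GRCr8, an assembly other than the mRatBN7.2 of the tables. S100a1 and S100a13 are neighbours there, as are S100a3 and S100a4, S100a8 and S100a9, and S100a11 and S100a10. RefSeq's promoter table for GRCr8 held 7 of the 10 members, and the 150 bases upstream of the transcription start are shown for 3 of them: S100a4 and S100a11, the 2 members with the highest PSCI values relative to control, and S100a9, an alarmin near the detection limit. Capitals mark the letters TATAAA, a motif searched after the sequences had been viewed. The S100a4 stretch is chr2:178388379-178388528 on the plus strand, the S100a11 stretch chr2:181874982-181875131 on the plus strand, and the S100a9 stretch chr2:178490623-178490772 on the minus strand, each written 5′ to 3′.
S100a4: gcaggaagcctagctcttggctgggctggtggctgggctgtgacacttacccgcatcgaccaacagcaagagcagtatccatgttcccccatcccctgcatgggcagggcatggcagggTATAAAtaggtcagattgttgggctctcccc
S100a11: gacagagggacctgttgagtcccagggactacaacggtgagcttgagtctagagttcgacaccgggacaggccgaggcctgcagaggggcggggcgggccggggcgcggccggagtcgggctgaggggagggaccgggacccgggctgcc
S100a9: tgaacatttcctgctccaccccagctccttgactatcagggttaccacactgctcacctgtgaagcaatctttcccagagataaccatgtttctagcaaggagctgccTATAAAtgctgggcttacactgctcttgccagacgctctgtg
TATAAA lay 31 to 26 bases before the start of S100a4 and 42 to 37 bases before that of S100a9, and was in 2 of the 7 members' 250 upstream bases against 12.9% of all 33469 promoters, both strands read. The G- and C-rich S100a11 stretch held none. The AP-1 letters TGANTCA and the STAT letters TTCNNNGAA were in 0 of 7 members, against 6.34% and 7.67% of all promoters. The kappa B motif was in 4 of 7 (S100a3, S100a4, S100a6 and S100a11) against 42.3%, and the E-box letters CANNTG in 3 of 7 (S100a9, S100a11 and S100b) against 65.5%. Some kappa B matches overlapped each other. These are matches of letters in 1 window, not measured sites.

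Total expected counts were between 13747389 and 15415694 per library, so that 3 counts correspond to 0.191 to 0.220 CPM, taken here as the limit of detection. CPM stands for a gene's counts scaled to a common library size, after TMM scaling for library composition. All 8 markers of neurons passed the filter, and their sum ran from 4922 CPM in PSCI replicate 2 to 10223 CPM in taVNS replicate 2. Markers of meninges and fibroblasts stood apart in 2 libraries: their sum was 452 CPM in PSCI replicate 2 and 546 CPM in taVNS replicate 3, against 138 to 197 CPM in the other 7. Counts without those 2 libraries are therefore given where they bear on a result. In bulk tissue, fewer cells of a type and less RNA per cell cannot be told apart.

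S100 transcripts separated into a group high in every PSCI library, a group near its control level, and S100b, which was low in PSCI. Of the 8 tested members, 5 passed an adjusted p of 0.05 (edgeR quasi-likelihood test, Benjamini-Hochberg over all genes) as higher in PSCI than in control, beside 7.71% of all genes tested, and 0 passed as lower, beside 2.14%. Those 5 were S100a3, S100a4, S100a6, S100a10 and S100a11. The PSCI and control libraries did not overlap for 6 members that were higher, S100a13 being the sixth, and for 1 that was lower, S100b; among all genes 16.2% were higher and 11.3% lower without overlap. Nothing is read from these counts, since the members were listed with this contrast known. The members' median log2 fold change was 2.53 and that of all genes was near 0.

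**Figure D1:**
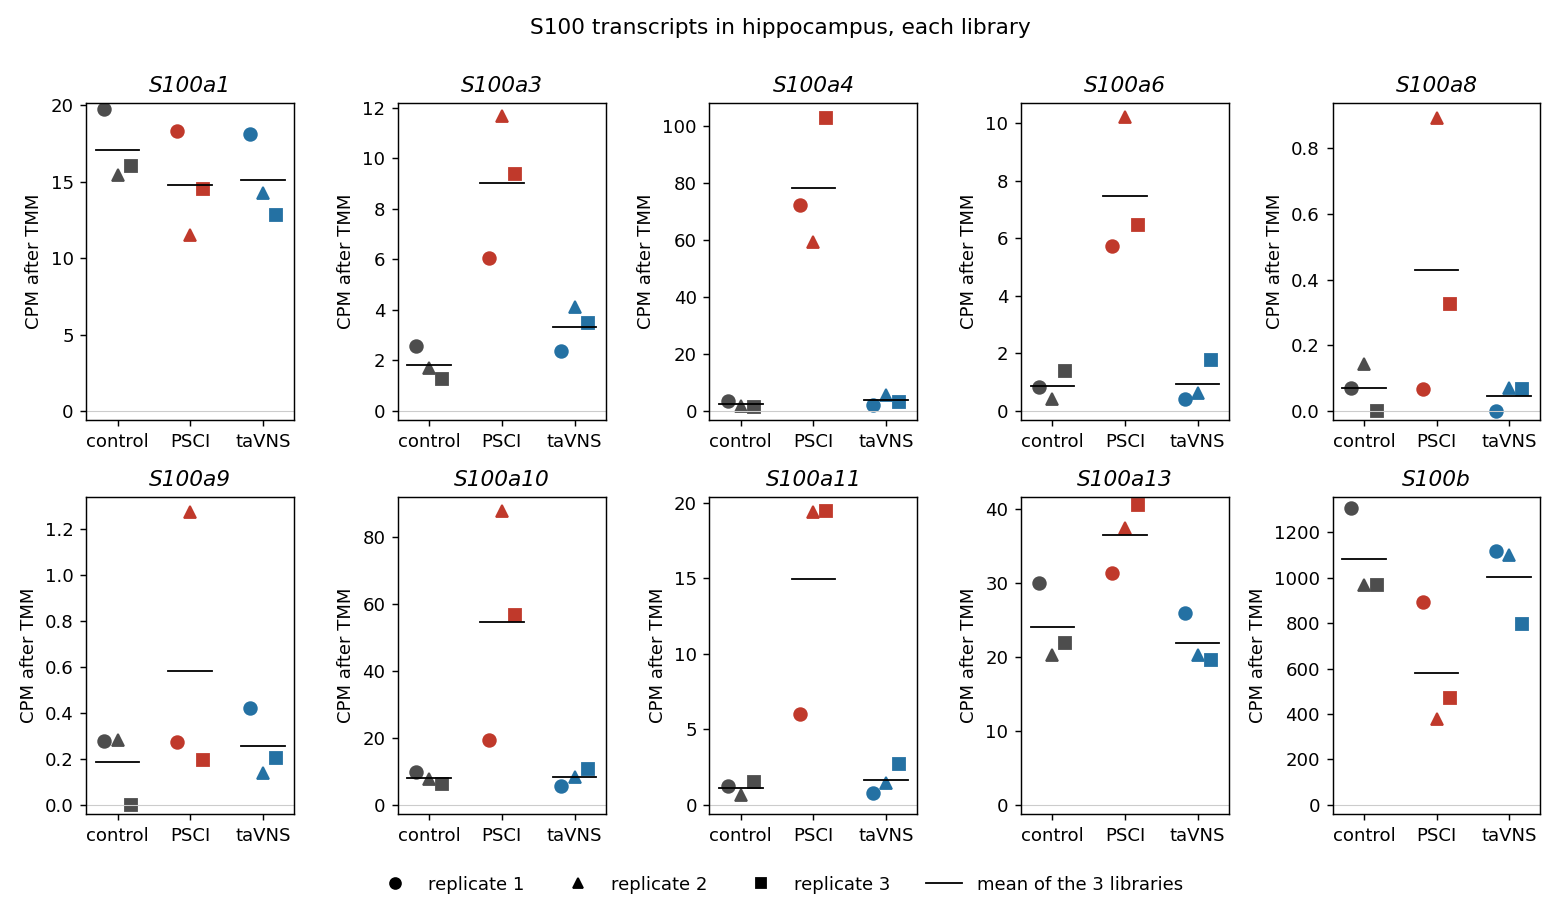
Level of each of the 10 S100 genes in each library (CPM after TMM, linear axes that differ between panels), with points by group and replicate and a line at the mean of 3 libraries. S100a4 lay between 59.1 and 102.8 CPM in PSCI and at most 5.60 CPM elsewhere, while S100b was lowest in 2 PSCI libraries.

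S100a4, the myosin-binding member also called metastasin, had the widest gap between groups. It was at 3.66, 1.91 and 1.47 CPM in control replicates 1 to 3, at 72.1, 59.1 and 102.8 CPM in PSCI, and at 2.24, 5.60 and 3.28 CPM in taVNS. Each PSCI library was thus more than 10 times above every control and taVNS library. The fitted log2 difference of PSCI from control was 5.04 ± 0.42 (SE, n = 3 and 3), which is 33.0-fold. That of taVNS from PSCI was -4.39 ± 0.40. Control and taVNS ranges overlapped, with a log2 difference of 0.65 ± 0.43. Within PSCI, S100a4 was lowest in replicate 2, the PSCI library richest in meningeal markers, and it was at 3.28 CPM in taVNS replicate 3, the richest of all. Without those 2 libraries its PSCI to control log2 difference was 5.19; the part of meningeal tissue in its level was not tested.

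S100a3, which lies beside S100a4, and S100a6, which lies beside S100a5 in the same gene cluster, were lower in abundance. S100a6, also called calcyclin, was at 0.83, 0.42 and 1.40 CPM in control, 5.73, 10.2 and 6.46 CPM in PSCI, and 0.42, 0.63 and 1.78 CPM in taVNS. Its control and taVNS values rest on few reads, the lowest being 0.42 CPM against a limit of detection of about 0.21 CPM. PSCI did not overlap either group; the log2 difference was 3.07 ± 0.56 from control and -2.97 ± 0.55 for taVNS from PSCI, and the latter became -3.78 without taVNS replicate 3.

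S100a3 was at 2.55, 1.70 and 1.25 CPM in control, 6.07, 11.7 and 9.40 CPM in PSCI, and 2.38, 4.13 and 3.48 CPM in taVNS. Its log2 difference was 2.29 ± 0.35 for PSCI from control and -1.44 ± 0.34 for taVNS from PSCI. S100a3 had the largest taVNS to control difference of the 8 members, 0.85 ± 0.35, with ranges that overlapped. In the annotation used here its span overlaps the genes S100a2 and Mier3-ps1. Its expected counts were whole numbers in every library, and how reads were assigned there was not tested.

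S100a10 and S100a11, the annexin-binding members that lie side by side, differed among the PSCI libraries more than S100a4 did. S100a10, known as p11, was at 9.87, 7.86 and 6.32 CPM in control, 19.4, 87.7 and 56.7 CPM in PSCI, and 5.75, 8.18 and 10.7 CPM in taVNS. PSCI replicate 1 was below the other PSCI libraries but above all control and taVNS libraries. The log2 difference was 2.77 ± 0.49 for PSCI from control, 6.80-fold, and -2.73 ± 0.49 for taVNS from PSCI. Its PSCI to control call, which supports nothing, was lost without control replicate 2 (log2 difference 2.75) or control replicate 3 (2.59). S100a10 was highest in PSCI replicate 2, where meningeal markers were high, and without that library and taVNS replicate 3 the log2 difference from control was 2.22.

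S100a11, also called calgizzarin, was at 1.24, 0.64 and 1.54 CPM in control, 5.998, 19.4 and 19.4 CPM in PSCI, and 0.77, 1.47 and 2.73 CPM in taVNS. The PSCI libraries stood above all others, with a log2 difference of 3.70 ± 0.59 from control (13.03-fold), and taVNS differed from PSCI by -3.16 ± 0.57. RefSeq names 7 further copies and pseudogenes after S100a11 and 1 after S100a10. The expected counts of S100a10 and S100a11 were whole numbers in every library, and whether reads were divided among copies was not tested. The deposited RPKM (reads scaled by transcript length and library size) gave S100a11 a smaller gap, a log2 ratio of PSCI to control means of 3.32 against 3.71 from CPM, and limma on log2(RPKM + 1) gave 3.02. Of the other 7 tested members S100a6 differed most, at 3.08 from CPM and 3.38 from RPKM.

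S100b, the astrocyte member, took the opposite position and was by far the most abundant. It was at 1309, 968 and 966 CPM in control, 892, 378 and 470 CPM in PSCI, and 1120, 1099 and 796 CPM in taVNS. The PSCI libraries were all below the control libraries, but taVNS replicate 3 was below PSCI replicate 1. The log2 difference was -0.90 ± 0.30 for PSCI from control and 0.79 ± 0.30 for taVNS from PSCI, and neither passed the adjusted threshold. Leaving out 1 library brought them to as little as -0.66 and 0.56, and leaving out both libraries high in meningeal markers gave -0.68 and 0.71. Neither passed in those fits. Without PSCI replicate 1 they were -1.35 and 1.25, and both passed. The first also passed with DESeq2 and with the replicate block. These calls support nothing, since S100b was listed with these contrasts known. S100b was lowest in PSCI replicate 2, where myelin markers summed to 5126 CPM against 9161 to 17590 CPM in the other 8 libraries. Myelin markers summed to 14148.5 CPM in PSCI replicate 3, where S100b was next lowest, and to 14330.9 CPM in PSCI replicate 1. Their part in the S100b level was not tested. Part of the S100b span overlaps Dip2a in the annotation.

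Astrocyte markers did not share the S100b pattern. Markers of reactive astrocytes, such as Gfap and Vim, summed to 716 to 1290 CPM in control, 4781 to 9776 CPM in PSCI and 956 to 1502 CPM in taVNS. Of these 12 markers 10 rose in PSCI, beside 7.71% of all genes, and 10 fell in taVNS against PSCI, beside 4.91%. Markers of homeostatic astrocytes summed to 4087 to 5089 CPM in control, 5247 to 6002 CPM in PSCI and 4197 to 4295 CPM in taVNS. Of those 8 markers 1 passed as higher in PSCI and 2 as lower in taVNS against PSCI, beside the same shares of all genes. S100b was thus lowest in the 2 libraries with the highest reactive astrocyte sums, and S100a10 highest there. Markers of microglia and macrophages summed to 309 to 398, 637 to 987 and 414 to 493 CPM in control, PSCI and taVNS, with 8 of 12 higher in PSCI beside 7.71% of all genes, and 5 of 12 lower and 1 higher in taVNS against PSCI beside 4.91% and 0.842%. In all 3 comparisons, 0 of 12 meningeal markers passed the test. The marker lists were chosen with earlier results of these data known, so nothing is read from their counts of calls. How far the number of cells of each kind sets the S100 levels was not tested.

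**Figure D2:**
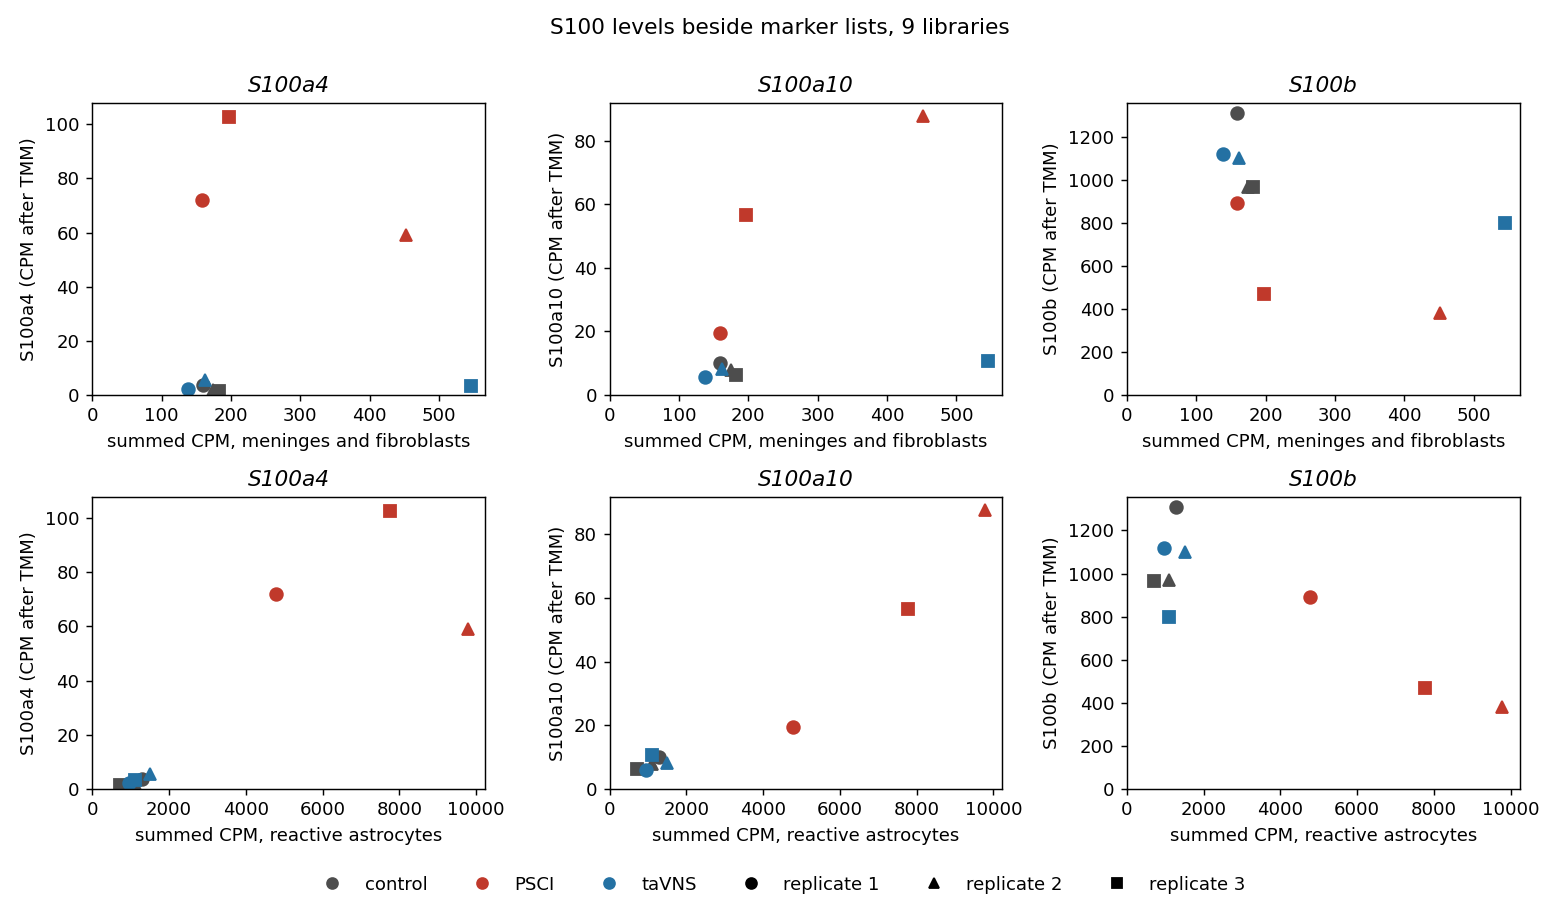
Levels of S100a4, S100a10 and S100b (CPM after TMM) against the summed CPM of meningeal and fibroblast markers (upper row) and of reactive astrocyte markers (lower row), 1 point per library. taVNS replicate 3, at 546 CPM of meningeal markers, had S100a4 at 3.28 CPM, and the 3 PSCI libraries stand apart on the reactive astrocyte axis at 4781 CPM and above.

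S100a13 and S100a1, neighbours on chromosome 2, stayed closer to their control levels. S100a13, known for the release of Fgf1 and Il1a from cells, was at 30.0, 20.3 and 21.9 CPM in control, 31.4, 37.5 and 40.6 CPM in PSCI, and 26.0, 20.2 and 19.5 CPM in taVNS. PSCI replicate 1 was only just above control replicate 1. The log2 difference was 0.60 ± 0.18 for PSCI from control, which did not pass, and -0.73 ± 0.18 for taVNS from PSCI, which did. The first passed without control replicate 1 (0.79) or PSCI replicate 1 (0.69), and with DESeq2 on all libraries (0.58). These calls too support nothing, since the member was listed with both contrasts known.

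S100a1, known for binding the ryanodine receptor and the calcium pump in muscle, was the tested member whose groups all overlapped. It was at 19.7, 15.4 and 16.01 CPM in control, 18.3, 11.5 and 14.6 CPM in PSCI, and 18.1, 14.3 and 12.8 CPM in taVNS. The log2 differences were -0.21 ± 0.20, 0.03 ± 0.20 and -0.18 ± 0.20 for PSCI from control, taVNS from PSCI and taVNS from control. Its targets Ryr2, Ryr3 and Atp2a2 did not pass the test in these comparisons.

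S100a8 and S100a9, which pair into calprotectin and are abundant in neutrophils, were close to the limit of detection. S100a8 had 1, 2 and 0 counts in control, 1, 14 and 5 in PSCI, and 0, 1 and 1 in taVNS. S100a9 had 4, 4 and 0 counts in control, 4, 20 and 3 in PSCI, and 6, 2 and 3 in taVNS. Both were highest in PSCI replicate 2, and the other PSCI libraries overlapped control for S100a9. Scaled by library size, the group sums gave a PSCI to control ratio of 6.16 for S100a8 (exact 95% interval 1.83 to 32.4) and 3.12 for S100a9 (1.38 to 7.94), intervals that cover counting error only. Without PSCI replicate 2 the ratios were 2.82 (0.601 to 17.4) and 1.23 (0.380 to 3.89). Markers of neutrophils and monocytes summed to 7.93 to 11.9 CPM in control, 17.2 to 44.1 CPM in PSCI and 10.2 to 13.05 CPM in taVNS. The granule genes Mpo, Elane, Camp and Ngp, and Cd177, had at most 3 counts in every library. Of the 13 markers with a row 3 were tested, and 1 of them passed as higher in PSCI, beside 7.71% of all genes. It was the cytokine receptor gene Csf3r, which rose by 2.21 ± 0.20 log2 (edgeR adjusted p = 0.000632), with 37 to 43 counts in control and 168 to 248 in PSCI. Fpr1, also tested, had 0, 10 and 8 counts in control, 6, 3 and 4 in PSCI, and 14, 12 and 8 in taVNS. Its PSCI to control log2 difference was -0.57 ± 0.85 and did not pass (edgeR adjusted p = 0.734). Mmp9 had 64, 106 and 446 counts in PSCI against 58 to 124 in control and did not pass (edgeR adjusted p = 0.348). Ccr2, a receptor of monocytes that was not tested, had at most 1 count in control and 5, 28 and 22 in PSCI. These markers too were chosen with earlier results of these data known, so their calls support nothing. Their part in the S100a8 and S100a9 counts was not tested.

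Against PSCI, taVNS libraries were lower for the members that had been high. Of the 8 tested members, 6 passed as lower, beside 4.91% of all genes, and 0 as higher, beside 0.842%; the 6 were S100a3, S100a4, S100a6, S100a10, S100a11 and S100a13. The groups did not overlap for those 6, against 15.2% of all genes lower without overlap, and for 0 members that were higher, against 10.6%. The same PSCI libraries enter both comparisons, so a high PSCI value sets both differences. The median over the members was -2.08. The count depended on the libraries fitted: 1 member passed without taVNS replicate 1 or without taVNS replicate 2, 3 without PSCI replicate 3, and 1 when only the 6 libraries compared were fitted. Calls over all genes fell as well, from 854 to 172, 254, 375 and 250 in those fits, in that order. Without both libraries high in meningeal markers 4 members passed, beside 361 of all genes, S100a3 and S100a13 having lost their calls. Nothing is read from these counts either. S100a6, S100a10 and S100a11 lost their calls without taVNS replicate 1 or taVNS replicate 2, and S100a11 also without PSCI replicate 3. S100a3 lost its call without control replicate 2, PSCI replicate 2 or 3, or any 1 taVNS library, and S100a13 without those or control replicate 3.

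Between taVNS and control, 0 of the 8 members passed the edgeR test, beside 0% of all genes. An unadjusted p under 0.05 was found for 1 member and for 3.75% of all genes. With DESeq2 0 members passed and 9 genes in all. No member was without overlap between these groups, against 11.1% of all genes. Log2 differences ran from -0.18 ± 0.20 (S100a1) to 0.85 ± 0.35 (S100a3), with a median of 0.07. With 3 rats per group, such intervals do not show that the levels were equal.

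**Figure D3:**
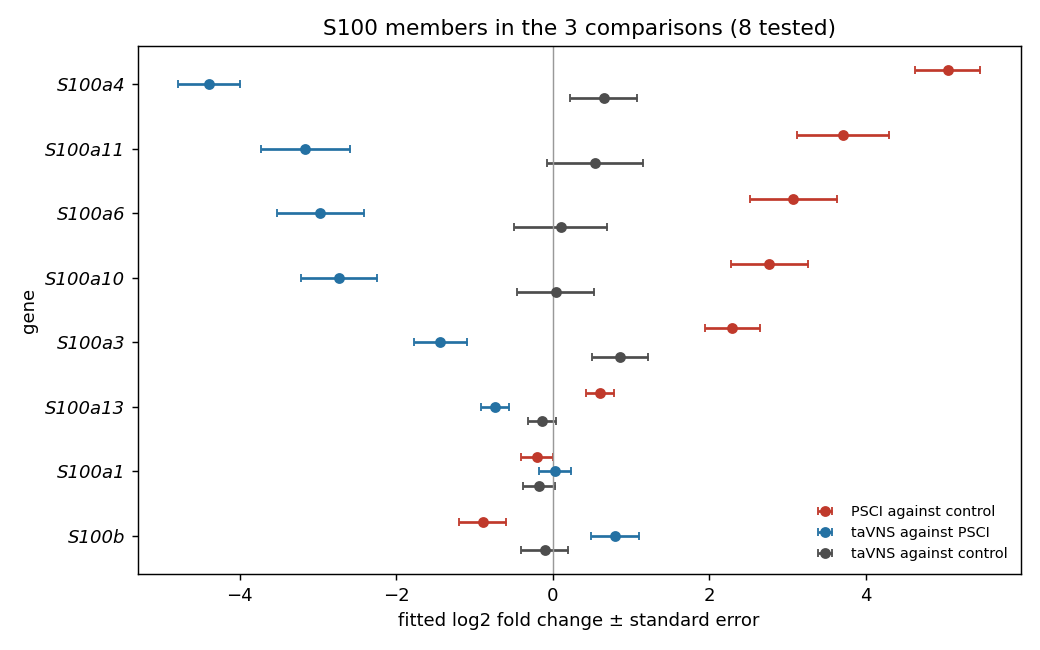
Fitted log2 fold change with its standard error (edgeR, 3 rats per group) for the 8 tested S100 genes in each comparison, ordered by PSCI against control. Values run from 5.04 for S100a4 to -0.90 for S100b in PSCI against control, and taVNS against control lies between -0.18 and 0.85.

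Per length of transcript, the order of the S100 genes changed with the group. In control, S100b stood first at 875 ± 150 RPKM (SD, n = 3), followed by S100a13 at 112 ± 23.0, S100a1 at 51.2 ± 6.51, S100a10 at 26.3 ± 5.75 and S100a4 at 10.3 ± 4.91 RPKM. Neighbours in that order did not overlap from S100b down to S100a4. S100a4, S100a11, S100a6 and S100a3 overlapped each with the next, as did S100a9 and S100a8 at the bottom, both under 1 RPKM on average. In PSCI, S100b was at 484 ± 217 RPKM, S100a4 at 368 ± 101, S100a10 at 190 ± 125 and S100a13 at 178 ± 25.9 RPKM, and each overlapped with the next. S100a11, S100a6 and S100a1 formed a further overlapping run at 49.0, 46.6 and 46.1 RPKM, above S100a3 at 22.2 RPKM. S100a4 thus went from rank 5 in control to rank 2 in PSCI, and held rank 5 in taVNS at 16.2 ± 6.75 RPKM. In taVNS the first 5 positions were held by the same genes as in control, S100b leading at 830 ± 144 RPKM.

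S100b made up 80.0%, 80.8% and 80.4% of the summed RPKM of the 10 genes in control and 80.6%, 81.3% and 76.8% in taVNS. Its share in PSCI was 52.3%, 24.8% and 27.1%, below all 6 other libraries. S100a4 took 23.8%, 21.7% and 33.7% in PSCI, against at most 2.20% in any other library. In PSCI replicate 3, S100a4 was at 124% of the S100b level, and in control replicate 3 at 0.820%. The total over the 10 genes moved less: it was 1312, 978 and 979 RPKM in control, 1401, 1336 and 1431 RPKM in PSCI, and 1173, 1076 and 869 RPKM in taVNS. Without S100b the sum was 188 to 263 RPKM in control, 668 to 1043 RPKM in PSCI and 201 to 228 RPKM in taVNS.

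**Figure D4:**
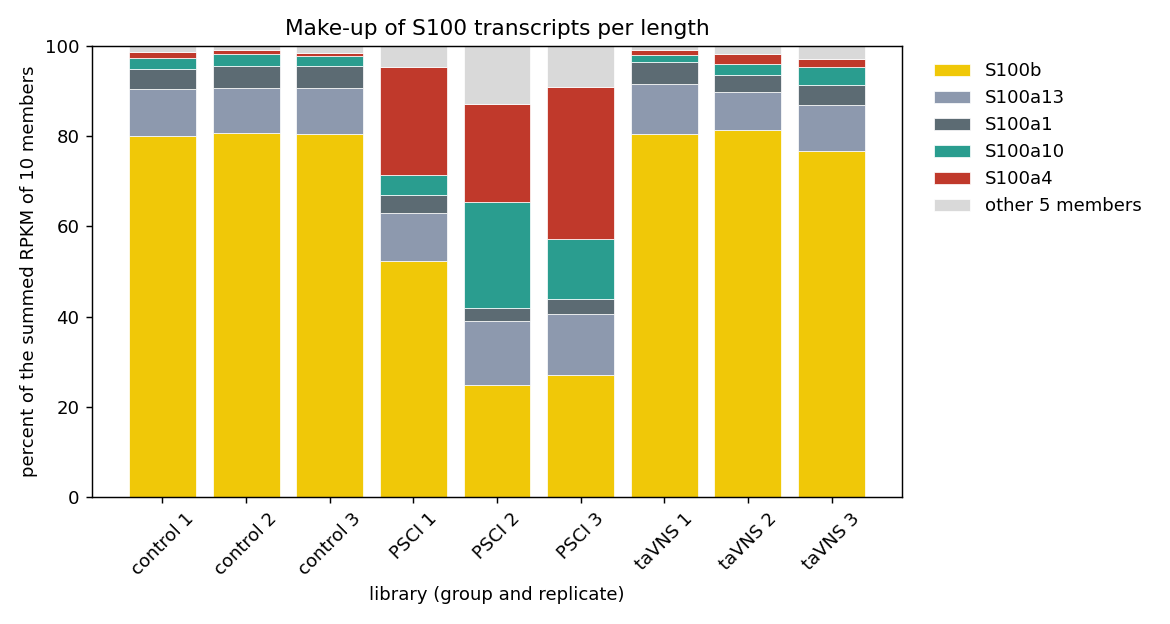
Percent of the summed RPKM of the 10 S100 genes held by each gene in each library, stacked to 100 with the 5 least abundant in control combined. S100b holds 76.8% to 81.3% in control and taVNS libraries and 24.8% to 52.3% in PSCI, where S100a4 holds 21.7% to 33.7%.

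Other S100 genes with a row in the tables were mostly silent. S100a16, another member of the chromosome 2 group, was at 77.3, 65.2 and 56.0 CPM in control, 78.6, 118 and 95.7 CPM in PSCI, and 67.4, 58.2 and 57.7 CPM in taVNS. It differed by 0.56 ± 0.16 log2 between PSCI and control (edgeR adjusted p = 0.0632) and fell by 0.68 ± 0.16 in taVNS against PSCI (edgeR adjusted p = 0.0467, up to 0.219 over the alternatives, and lost in 12 of 17). Of the 9 single libraries, leaving out control replicate 3 or PSCI replicate 1 kept that call, and leaving out any of the others lost it. S100a14 averaged 0.946, 1.29 and 1.07 CPM in control, PSCI and taVNS (edgeR adjusted p = 0.525 for PSCI against control). S100a5, S100a7a, S100g and S100z had at most 2 counts in any library. S100a2, S100a7l2, S100a12 and S100p were not analysed here.

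Of 32 tested genes for receptors and partners of S100 proteins, 11 rose in PSCI against control and 0 fell, beside 7.71% and 2.14% of all genes. The 11 include Cybb, whose place among the tested genes came from the PSCI libraries, where it was high. In taVNS against PSCI 7 fell and 0 rose, beside 4.91% and 0.842%. Against control, 0 partners passed in taVNS by edgeR, beside 0% of all genes, and 0 by DESeq2, which called 9 genes in all; 4 of 32 had an unadjusted p under 0.05, beside 3.75% of all genes. The PSCI against control count was 6 without any 1 control library. Calls over all genes then went from 1461 to 922, 635 and 548 without control replicates 1, 2 and 3. The taVNS against PSCI count was 12 without PSCI replicate 1, 4 without PSCI replicate 2 or any 1 control library, 3 without PSCI replicate 3, and 1 and 2 without taVNS replicates 1 and 2. Over all genes 854 passed there with every library. Without PSCI replicates 1, 2 and 3 it was 1707, 670 and 375, without control replicates 1, 2 and 3 690, 488 and 638, and without taVNS replicates 1 and 2 172 and 254. Without both libraries high in meningeal markers 10 partners passed in PSCI against control, beside 1173 of all genes. In taVNS against PSCI 5 passed in that fit, beside 361 of all genes. The partners' median log2 differences were 0.25, -0.25 and 0.08. The list was written with earlier results of these data known.

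Among the receptors, Tlr4, the innate immune receptor that reads S100a8 and S100a9, rose and Ager did not pass. Tlr4 was at 1.52, 1.91 and 0.882 CPM in control, 8.18, 8.35 and 10.8 CPM in PSCI, and 1.96, 1.68 and 2.73 CPM in taVNS. It rose by 2.66 ± 0.31 log2 in PSCI (edgeR adjusted p = 0.00207) and fell by 2.10 ± 0.30 in taVNS against PSCI (edgeR adjusted p = 0.00696). Its deposited RPKM gave smaller log2 ratios of means, 1.89 and -1.28, and the taVNS call was lost with limma on RPKM (highest adjusted p 0.0832). Ager, which encodes RAGE, was at 1.10, 1.84 and 2.20 CPM in control, 2.32, 1.66 and 1.96 CPM in PSCI, and 3.50, 2.59 and 3.07 CPM in taVNS. The 3 taVNS libraries were the highest, with edgeR adjusted p = 0.739 for PSCI against control and 0.269 for taVNS against PSCI.

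Cd36, a scavenger receptor that takes up fatty acids carried by S100a8 and S100a9, had 0 counts in all control and taVNS libraries and 1, 21.83 and 38.94 expected counts in PSCI. It did not pass the filter and has no test. Against the limit of 3 counts per library its mean PSCI level of 1.34 CPM was at least 6.07-fold higher than control, and the 1 count of PSCI replicate 1 could not be told from 0 at this depth.

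The NADPH oxidase, the phagocyte enzyme to which S100a8 and S100a9 deliver arachidonic acid, had subunits that were higher in PSCI. Ncf1 rose by 2.33 log2 (edgeR adjusted p = 0.00548) and Cyba by 2.20 (adjusted p = 0.00923). Cybb, the catalytic subunit, was at 0.414, 0.496 and 0.441 CPM in control and 0.682, 12.3 and 5.29 CPM in PSCI. Cybb did not pass the filter when control and taVNS were fitted alone, so its place among the tested genes came from the PSCI libraries, where it was high. PSCI replicate 1 was close to control for Cybb. The fitted change was 3.74 ± 0.95 log2, and 2.71 without PSCI replicate 2. The Cybb call is given for completeness and supports nothing. It was lost in 11 of 17 alternatives, including without PSCI replicate 2 or 3, any 1 control library, or taVNS replicate 1 or 2. In taVNS against PSCI, Ncf1 fell by 1.47 (edgeR adjusted p = 0.0379, lost in 13 of 17 alternatives, among them the removal of each library except PSCI replicate 1).

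Of the 6 annexins on the partner list, proteins that bind membranes in the presence of calcium, 3 rose in PSCI, beside 7.71% of all genes. Anxa2, the S100a10 partner, was at 5.31, 5.45 and 5.88 CPM in control, 18.5, 90.2 and 49.6 CPM in PSCI, and 5.89, 6.50 and 24.7 CPM in taVNS. Its order within PSCI was that of S100a10, replicate 2 highest and replicate 1 lowest. That order was not particular to this pair. S100a3, Anxa1, Ncf1, Myh9 and the summed reactive astrocyte and microglial markers had it too, while S100a4 and Tlr4 did not. In taVNS replicate 3, which was high in meningeal markers, Anxa2 was above PSCI replicate 1, while S100a10 was at 10.7 CPM. Anxa2 rose by 3.25 ± 0.68 in PSCI (edgeR adjusted p = 0.0189); the change was 2.62 without PSCI replicate 2, and the call was lost without any 1 control library (highest adjusted p 0.0774). It did not pass in taVNS against PSCI (edgeR adjusted p = 0.0964).

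Anxa1, the S100a11 partner, rose by 3.36 ± 0.66 (edgeR adjusted p = 0.0145, lost without any 1 control library) and fell by 2.51 ± 0.62 in taVNS (adjusted p = 0.0496, lost in 12 of 17 alternatives, and -3.35 without taVNS replicate 3). Without any 1 of the control libraries, PSCI replicates 2 and 3 or taVNS replicates 1 and 2, that taVNS call was not made. Anxa5 rose from 39.7 to 75.7 CPM in PSCI, by 0.93 ± 0.15 log2 (edgeR adjusted p = 0.00642), and fell by 0.82 ± 0.15 in taVNS (adjusted p = 0.0160, lost without taVNS replicate 1 or 2). Anxa4, Anxa6 and Anxa11 did not pass.

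Ahnak, a large scaffold that binds S100a10, rose by 1.58 ± 0.37 in PSCI (edgeR adjusted p = 0.0287, not called once PSCI replicate 2, PSCI replicate 3 or any control library was left out). Myh9, the non-muscle myosin heavy chain that S100a4 binds, rose by 1.01 (edgeR adjusted p = 0.00619) and fell by 0.77 in taVNS (adjusted p = 0.0258, lost without PSCI replicate 3 or any 1 taVNS library), while Myh10 did not pass. Plat, the tissue plasminogen activator that S100a10 can bind at the cell surface, rose by 0.46 (edgeR adjusted p = 0.0285, not called in 7 of 17 alternatives, with the same libraries left out among them) and fell by 0.44 in taVNS (adjusted p = 0.0461, not called when any of the 9 libraries but PSCI replicate 1 was dropped). Fgf1, cargo of S100a13, did not pass.

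**Figure D5:**
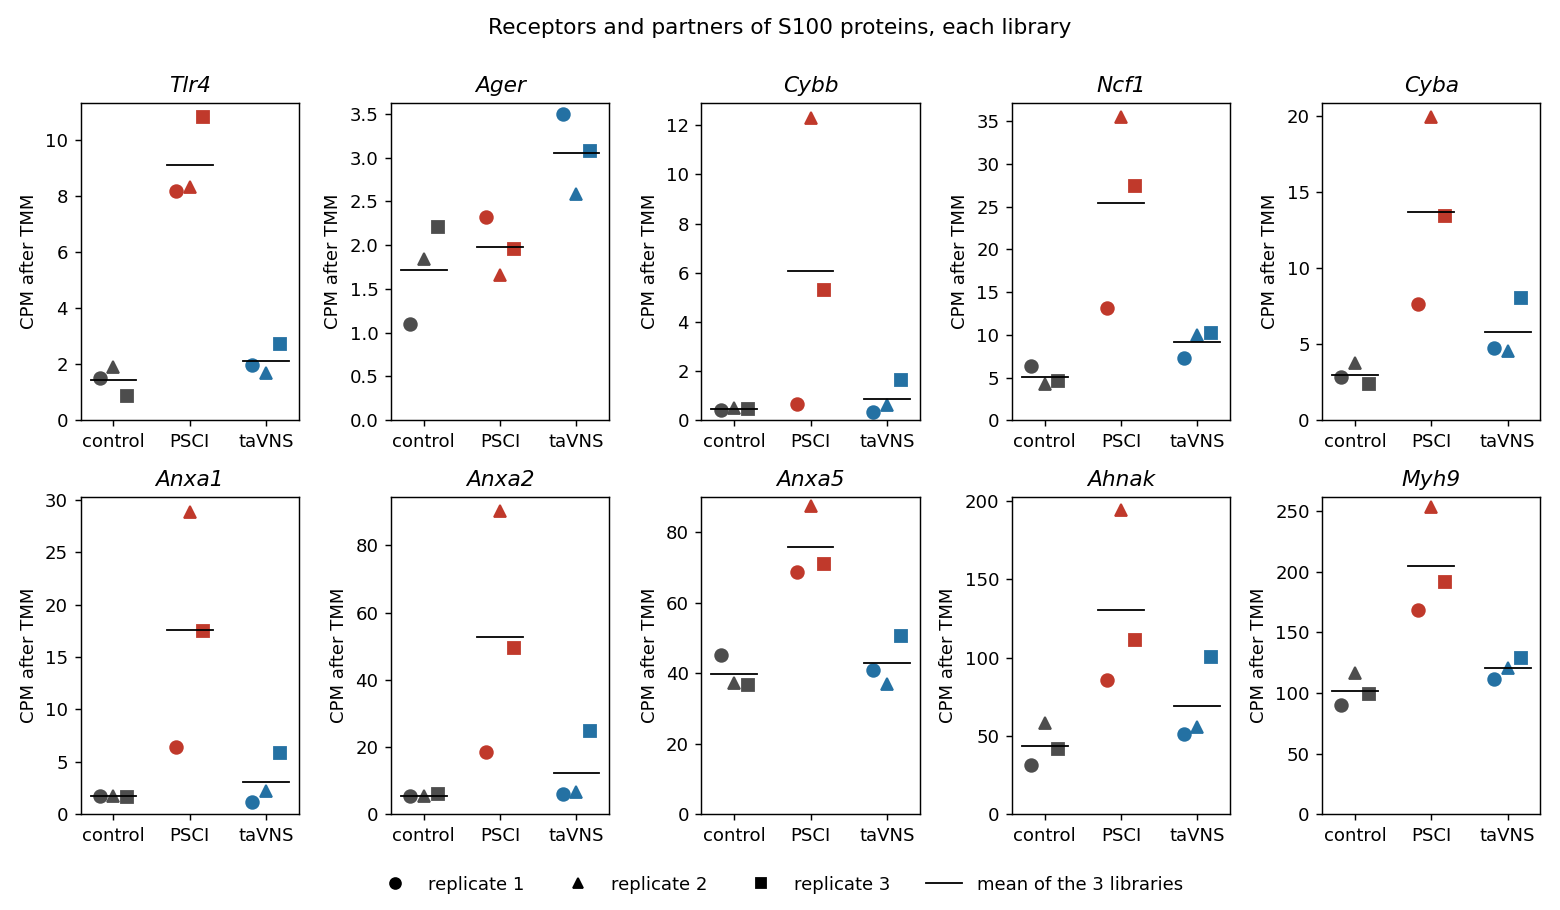
Levels of 10 receptor and partner genes in each library (CPM after TMM, linear axes from 0 that differ between panels), with a line at the mean of 3 libraries. PSCI replicate 1 is the lowest PSCI library for Cybb (0.682 CPM) and Anxa2 (18.5 CPM), and Ager is highest in taVNS.

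The genes whose levels followed each S100 gene most closely over the 9 libraries were found by Pearson's r of log2 CPM among 13465 genes, and are a description, since all points share the same libraries and the same group differences. S100a4 was followed by Bcl2a1 (r = 0.990), A2m and Nfkb1 (both 0.985); A2m, a protease inhibitor, went from a mean of 21.2 CPM in control to 183 CPM in PSCI. The log2 ratio of PSCI to control for Nfkb1 was 2.18 in CPM but 1.46 in RPKM. S100a10 was followed by Slc39a1 (0.997), Rab31 (0.995) and P4hb (0.993), which changed less than it did: Slc39a1, a zinc transporter, went from a mean of 41.7 CPM in control to 104.5 CPM in PSCI.

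S100a3 was followed by Fgd2 (0.993), St14 (0.989) and Itgam (0.987), the last a surface integrin of microglia and other myeloid cells that is also on the microglial marker list. Genes close to S100a11 included Ifngr1 (0.979) and Dera (0.978), and S100a6 was followed by Igsf6 (0.960), Mgst1 (0.960) and Tnfsf13b (0.957). Igsf6 averaged 0.547, 2.25 and 0.530 CPM in control, PSCI and taVNS, and Tnfsf13b 0.428, 3.36 and 0.761 CPM. Both went down to 0.212 CPM in a control library, at the limit of detection, so their r values rest on few reads outside PSCI. Genes close to S100b included Kctd4 (0.994) and Paqr6 (0.973). Kctd4 averaged 121 CPM in control, 59.6 CPM in PSCI and 107 CPM in taVNS. S100a13 was followed by Ctns (0.974), Oser1 (0.970) and Bcl10 (0.970), and S100a1 by Rnf220 (0.946), Id4 (0.942) and Cpox (0.940).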

How the data were processed

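Polyadenylated RNA from about 50 mg of hippocampus per rat was made into libraries that mark strand with dUTP, per the labels' protocols. The deposited tables hold expected counts and RPKM per gene for each of 9 libraries. Per the submitters' processing notes, HISAT2 2.0.4, RSEM 1.2.8 and the build mRatBN7.2 were used; the step each served, the annotation and the use of strand in counting are not given in the sources used here. Expected counts, which the authors deposited, were rounded to whole numbers; 91.1% to 91.6% were whole already. RPKM, deposited by the authors, served for levels compared between genes and as an alternative unit.

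The expected counts of all 9 libraries were fitted together with edgeR 4.0.16 in R 4.3.3 (filterByExpr, TMM, quasi-likelihood F test with 6 residual degrees of freedom, Benjamini-Hochberg over 14840 genes, called under 0.05), with group as the only term. Fold changes are fitted log2 values ± SE, and means are CPM ± SD. The alternatives used DESeq2 1.42.0, limma 3.58.1 (log2 of RPKM + 0.1 or + 1), other scaling, no filter, pairwise fits, a replicate block and removal of libraries. The script was tested on simulated data. Replicates differed by more than sampling noise.

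The members, the partner list and the marker lists were chosen with earlier results of these data known. Named genes are all members, each other S100 gene with a row, the partners that passed in PSCI against control or taVNS against PSCI, the genes Ager, Tlr4, Anxa2, Cybb and Cd36 whatever their values, and the 3 genes of closest pattern per tested member with a mean of at least 1 CPM and a named symbol. Of 36 listed partners 35 had a row and 32 were tested. Promoters were matched to RefSeq GRCr8 by gene identifier. Some genes that this rule names are not reported here, although counts include them.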

Additional observations from a re-analysis of the deposited data

How the results depend on the processing

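Each result was recomputed under 17 alternatives, and no log2 difference of a called member changed sign. In PSCI against control 4 to 7 members passed when 1 library was left out, 7 with DESeq2 and 5 without both libraries high in meningeal markers, the members added with DESeq2 being S100a13, higher, and S100b, lower; these counts support nothing, since the members were chosen with this contrast known. In taVNS against PSCI, where 6 members passed, 1 passed with only the 2 groups fitted and 1 to 7 passed when 1 library was left out. Without both libraries high in meningeal markers 4 passed. S100a3 lost its call in 9 alternatives, S100a13 in 11, S100a11 in 4, and S100a6 and S100a10 in 3 each. In taVNS against control 0 members passed under each of them. For the partners, 11 of which passed in PSCI against control, leaving out 1 library gave 6 to 12. In taVNS against PSCI, where 7 partners passed, DESeq2 gave 11, the 2-group fit 2, limma on log2(RPKM + 0.1) 3 and on log2(RPKM + 1) 3, and leaving out 1 library 1 to 12. Over all genes, 1461, 854 and 0 passed in the 3 comparisons, and 2257, 1550 and 9 with DESeq2. Leaving out 1 library gave 548 to 2255 in PSCI against control and 172 to 1707 in taVNS against PSCI. The 2-group fits gave 806 and 250 in these comparisons. limma gave 1307 and 666 with log2(RPKM + 0.1), and 1248 and 655 with log2(RPKM + 1). The causes of these shifts were not tested. Same-numbered libraries had residual correlations of -0.47 to 0.26, and 2, 1 and 3 of 6 libraries in the 3 comparisons correlated best with their own number. Residuals from means of only 3 libraries cannot decide whether the replicate numbers in the labels pair the samples. A fit with the replicate block gave 6 members, 10 partners and 1084 of all genes in PSCI against control. In taVNS against PSCI it gave 4 members, 3 partners and 518 of all genes. At this depth S100a8 and S100a9 could not be followed per library.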
